A study of Mus musculus with 6 samples.

Results

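The stefin A genes and other cystatin genes were examined in long-term haematopoietic stem cells (LT-HSC) with and without NPMc+, a mutant nucleophosmin that is displaced from the nucleolus to the cytoplasm. Of 8 genes listed by symbol, 7 had a probe set that names that gene alone, out of 22180 genes so represented. They were the stefin A genes Stfa1, Stfa2, Stfa2l1 and Stfa3 and the other cystatins Cstb, Cst3 and Cst7. No probe set carried the symbol BC100530, which was not analysed here under that name. Cstdc5, a gene of the same cluster, may be its current name, but the tables used here do not pair them, so Cstdc5 is described as a neighbour. Where a gene had more than 1 probe set, the brightest on average stood for it.

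The data came from 6 microarrays of mouse LT-HSC sorted from bone marrow 4 months after a bone marrow transplant, all labelled as strain C57/BL6. There were 3 arrays of control pools and 3 arrays of pools expressing NPMc+, numbered 1 to 3 in each group. Each array held RNA of a pool of animals. The labels give neither the number, age or sex of the animals in a pool, nor the promoter or vector from which NPMc+ was expressed, nor what the controls received in its place.

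Cystatins are small proteins that bind reversibly and tightly in the active site cleft of papain-like cysteine proteases, the cysteine cathepsins. Stefins are the cytosolic branch of the family: stefin B, encoded by Cstb, is found in most cells, whereas the mouse stefin A genes form a cluster of close copies that is known for expression in neutrophils and their precursors. Cystatin C, encoded by Cst3, is secreted by most cells, and cystatin F, encoded by Cst7, is delivered to the endolysosomes and granules of immune cells, where cathepsin C is among its targets.

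The RefSeq table of assembly GRCm38.p6, used for the order of genes, places 11 genes with stefin A or related cystatin names on chromosome 16 from Csta1 to Stfa3, with 1 other protein-coding gene among them. Stretches of 120 bases before the annotated start are shown for the stefin A members and for Cstdc4, another gene of the cluster that was lower in NPMc+, to show how alike the promoters of these genes are. Cst7, the member that was higher in NPMc+, is shown for contrast. The sequences are from RefSeq (GRCm38.p6) and are written 5′ to 3′ in the direction of each gene. Capitals mark matches on either strand to 3 short motifs. The first is TTTAAA, an AT-rich hexamer that lies near the start of some genes in place of a TATA box. Matches to AGATAA, which is known as a core recognised by GATA factors of the blood lineages, are marked likewise. So are matches to GAGGAA, which is known as a core recognised by the myeloid and lymphoid factor PU.1. Stfa1 is at chr16:36277028-36277147 (+ strand), Stfa2l1 at chr16:36156691-36156810 (+ strand), Stfa3 at chr16:36455393-36455512 (- strand), Stfa2 at chr16:36408364-36408483 (- strand), Cstdc4 at chr16:36184092-36184211 (+ strand) and Cst7 at chr2:150570295-150570414 (+ strand).
Stfa1: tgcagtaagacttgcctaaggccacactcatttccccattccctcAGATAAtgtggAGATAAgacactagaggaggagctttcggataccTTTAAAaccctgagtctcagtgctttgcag
Stfa2l1: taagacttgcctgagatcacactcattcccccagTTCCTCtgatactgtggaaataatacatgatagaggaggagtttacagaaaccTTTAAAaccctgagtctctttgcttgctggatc
Stfa3: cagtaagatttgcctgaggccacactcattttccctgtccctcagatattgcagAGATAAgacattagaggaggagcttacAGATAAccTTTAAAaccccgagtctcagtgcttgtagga
Stfa2: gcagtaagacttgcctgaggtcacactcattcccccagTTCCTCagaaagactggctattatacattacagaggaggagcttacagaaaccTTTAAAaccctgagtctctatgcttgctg
Cstdc4: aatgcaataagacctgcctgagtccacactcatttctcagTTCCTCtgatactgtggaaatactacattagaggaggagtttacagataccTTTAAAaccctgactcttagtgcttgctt
Cst7: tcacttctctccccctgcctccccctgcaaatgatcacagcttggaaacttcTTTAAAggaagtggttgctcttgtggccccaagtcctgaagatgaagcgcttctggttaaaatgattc

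Over the 250 bases before the start, the 4 stefin A members had 80.8% to 90.8% identical bases in pairwise alignments, 71.6% to 75.6% with Cstdc4, and 42.8% to 53.2% with Cst3 and Cst7. Not all promoters of the cluster were alike. With the 4 members, Cstdc5 had 76.4% to 88.0% and Csta3 68.0% to 72.0% identical bases. Csta1 had 50% to 53.6%, Csta2 45.6% to 53.6% and the first listed window of Cstdc3 52.4% to 57.2%. Windows of genes outside the cystatin family were not aligned, so values near 50% are not read as likeness. TTTAAA began at -33, -31, -30 and -29 in Stfa2l1, Stfa3, Stfa1 and Stfa2 and at -29 in Cstdc4, counted from the start. Cstdc6 has no promoter window and was not searched. In the remaining genes of the cluster TTTAAA began elsewhere, at -230 in Csta1, -77 in Csta3 and -9 in Cstdc5. It began at -24 and -55 in the 2 windows of Cstdc3 and had no match in Csta2. Among 32851 promoter windows in the RefSeq table, 0.566% had TTTAAA beginning between -33 and -29 and 12.1% had it anywhere in the 250 bases. That interval was taken from the positions in these members and Cstdc4, whose windows are much alike. Its share therefore does not measure how unusual the placement is. Stfa2, whose signal was too dim to show whether its RNA differed, had TTTAAA at a like distance to the 3 members that were lower. AGATAA occurred at -75 and -64 in Stfa1 and at -66 and -39 in Stfa3, without a match in Stfa2l1, Stfa2 or Cstdc4, where 9.99% of all windows hold it. GAGGAA was present in the windows of all 4 stefin A members (23.3% of all windows), as was the RUNX core TGTGGT (14%). A C/EBP motif, TTGCNNAA, was found in Stfa1 alone of the 4 (9.56%), and the TATA box TATAAA in none (12.4%). All 6 motifs were searched on both strands, and no 2 matches overlapped in these 4 windows. Such matches describe letters and do not show binding. Of the 7 members with values, Cstb has no promoter window in the table.

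**Figure D1:**
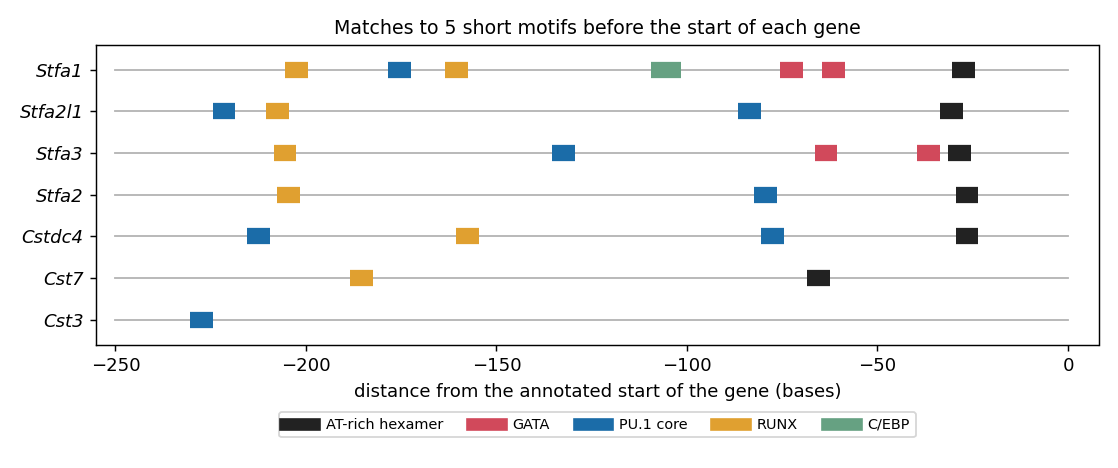
Positions of motif matches on either strand in the 250 bases before the annotated start of 7 genes, with the distance from the start in bases on the x axis. The black AT-rich hexamer sits at -33 to -29 in Stfa1, Stfa2l1, Stfa3, Stfa2 and Cstdc4, at -68 in Cst7, and has no match in Cst3; TATAAA had no match in the 7 windows and is not drawn.

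Values are deposited log2 expression units, so that a difference of 1 unit is a 2-fold change. Same-numbered arrays of both groups are tied in the deposited table: for each probe set the mean of control and NPMc+ is the same in pairs 1, 2 and 3. An effect of the replicate number had therefore been taken out. The control and NPMc+ values of a pair mirror each other around the gene's mean, and only the 3 differences within pairs carry independent spread. In such values the groups do not overlap exactly when the 3 pair differences share a sign. Statements below that groups did not overlap therefore add nothing to the signs of the pair differences. The members were selected on measured values, since NPMc+ minus control differences of this same contrast were in view when they were chosen, so their differences below are a description without a test. SE values are from the limma fit with the replicate number as a block. The values measure spread between pools; nothing in the labels says whether the pools were processed on separate days.

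Stefin A genes were lower in the NPMc+ pools wherever their signal was well above that of dim genes. Stfa2l1 was 4.79-fold lower, Stfa3 3.18-fold and Stfa1 2.98-fold, and each of these genes was lower in all 3 pairs. The differences were large in pairs 1 and 2 and small in pair 3. Stfa2 had a dim signal in both groups. Among the other cystatins, Cst7 was 1.5-fold higher in NPMc+, with almost the same difference in each pair, and Cstb and Cst3 differed in opposite directions between pairs.

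Stfa2l1 encodes a stefin A-like inhibitor. Its control values were 10.29, 10.49 and 9.14 log2 units in pairs 1, 2 and 3, and its NPMc+ values 7.40, 7.20 and 8.55. The highest NPMc+ array, that of pair 3, was 0.60 units under its own control and below every other control. The mean difference was -2.26 ± 0.50 (SE, n = 3 pairs), with an SD between pairs of 1.45. It amounted to 7.42-fold in pair 1, 9.77-fold in pair 2 and 1.51-fold in pair 3.

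Stfa3, a further stefin A copy, had 7.12, 6.99 and 6.14 log2 units in the control pools and 4.71, 4.84 and 5.68 in the NPMc+ pools. The groups did not overlap. Pair 3 had the smallest difference, and in the tied values it therefore also held the lowest control and the highest NPMc+ value. The differences within pairs were -2.41, -2.15 and -0.46, with a mean of -1.67 ± 0.38 (SE, n = 3 pairs). Stfa1 had 8.98, 8.69 and 8.38 in control and 6.81, 7.10 and 7.41 in NPMc+. Its difference was the most even of the 3 genes, at -2.16, -1.60 and -0.96, with a mean of -1.57 ± 0.26 (SE). In pair 3 Stfa1 was still 1.95-fold lower, against 1.38-fold for Stfa3.

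Stfa2, whose protein is a stefin A of the same kind, had a mean over the 6 arrays of 2.75 log2 units. This is below the 25th percentile of gene means, and the dimmest gene that was tested had 3.01. Control values were 2.99, 2.99 and 2.26, and NPMc+ values 2.52, 2.52 and 3.24. The groups overlapped, and the differences of -0.47, -0.47 and 0.97 cancelled to a mean of 0.01 with an SD of 0.83. At so low a signal the array does not show whether Stfa2 RNA differed.

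**Figure D2:**
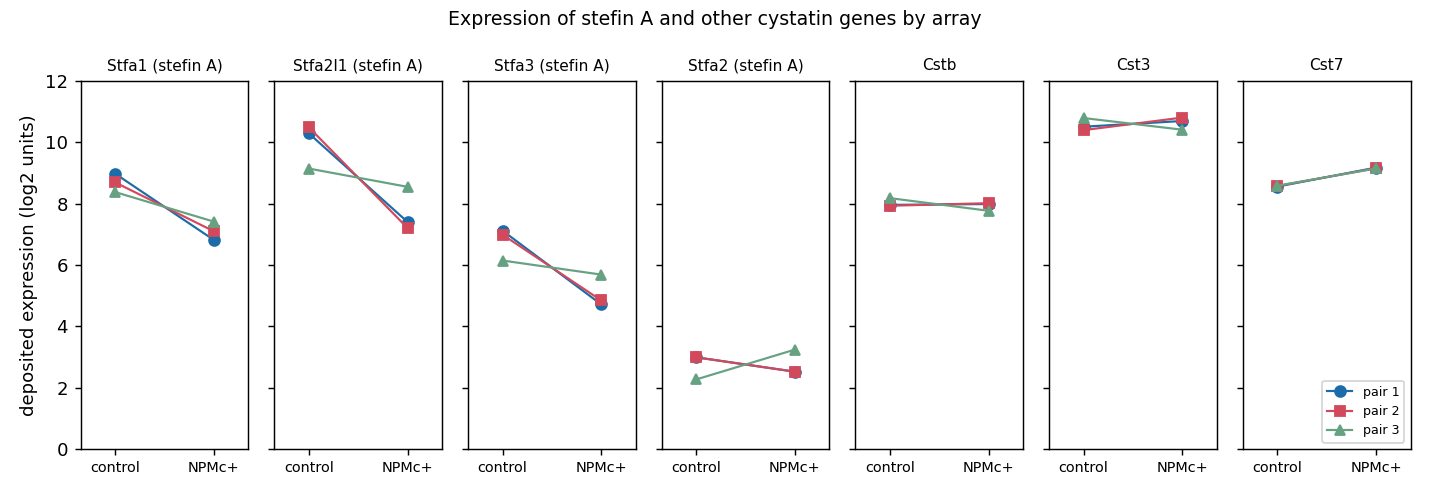
Deposited log2 expression of the 7 genes in control and NPMc+ arrays, with a line for each same-numbered pair; no error bars are drawn because each point is 1 array. Stfa1, Stfa2l1 and Stfa3 slope down in all 3 pairs, least in pair 3, while Cst7 goes up by 0.62, 0.58 and 0.56 units. Cstb and Cst3 slope up in pairs 1 and 2 and down in pair 3. The lines of every gene meet midway because the pairs share a mean.

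Cst7, the cystatin of immune cell granules and endolysosomes, had 8.55, 8.58 and 8.58 log2 units in control and 9.18, 9.15 and 9.15 in NPMc+. The pair differences were nearly equal, at 0.62, 0.58 and 0.56. In the tied values the closeness of arrays within each group only restates this. It does not show how alike the Cst7 levels of separate pools were. The mean difference was 0.59 ± 0.17 (SE, n = 3 pairs); the SD between pairs was 0.03, so most of this SE comes from the spread that limma borrows from other genes. Cst7 held rank 776 from the top among the 16635 genes tested, whereas Stfa2l1, Stfa3 and Stfa1 held ranks 10, 34 and 43 from the bottom. The genes were chosen with this contrast known, so the ranks do not measure how unusual they are.

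Cstb, the general cytosolic stefin, had 7.96, 7.93 and 8.18 in control against 7.99, 8.02 and 7.77 in NPMc+. The groups overlapped, and the mean difference was -0.10 ± 0.19 (SE, n = 3 pairs). Cst3, the secreted cystatin C, had 10.51, 10.40 and 10.79 in control against 10.70, 10.81 and 10.41 in NPMc+, a mean difference of 0.07 ± 0.22 (SE). Its second, dimmer probe set gave 0.17, 0.40 and -0.21 in pairs 1, 2 and 3, the same signs as the 0.19, 0.41 and -0.38 of the brighter. For Cstb and Cst3 alike, pair 3 went against pairs 1 and 2.

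The groups did not overlap for 3 of the 7 genes in the lower direction and for 1 in the higher; over all genes tested these shares were 12.8% and 17.4%. Nothing is read from these counts, because the genes were chosen with this contrast known. The median of the 4 stefin A members was -1.62 log2 units, with -2.28, -1.87 and -0.53 in pairs 1, 2 and 3. For the 3 other cystatins it was 0.07, with 0.19, 0.41 and -0.38. The distance between both medians was -1.69, but in pair 3 it was -0.15 against -2.47 and -2.28 in pairs 1 and 2. Over all 16635 genes tested the median difference was 0.03, and 0.92% of them were lower by at least 1 unit.

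Along the cluster, genes with clear signals were interspersed with dim ones. Cstdc4, which lies next to Stfa2l1, had 8.10, 9.08 and 7.51 in control and 5.76, 4.78 and 6.35 in NPMc+. It was lower in every pair, with differences of -2.34, -4.30 and -1.15 and a mean of -2.59 ± 0.54 (SE; limma adjusted p = 0.340). The other neighbours did not show differences of this size in each pair. Csta3 was also lower in every pair, with -0.20, -0.16 and -1.89 in pairs 1, 2 and 3, but most of its difference lay in pair 3. Cstdc6 (-0.15, -0.59 and 1.73) and Cstdc5 (-0.45, -0.46 and 0.63) changed sign in pair 3. Csta3, Cstdc6 and Cstdc5 were dim, with means over the 6 arrays of 3.65, 3.78 and 3.65 log2 units. In pair 3 Csta3 had 2.70 in NPMc+ and Cstdc6 2.91 in control, both under the lowest gene mean tested, 3.01. Their pair 3 differences thus rest on signals near the floor. Csta1, Csta2 and Cstdc3 were, like Stfa2, below the filter. Of the 6 loci listed as related to stefin A, 4 were tested; 1 of these, Cstdc4, was nominally lower, meaning an unadjusted limma p under 0.05, and 0 were nominally higher. Over all genes tested 3.02% were nominally lower and 5.95% nominally higher. Without pair 2 the count was 2 of 4. With all 7 other loci of the cluster added to the 4 members, the median was -0.14 in place of -1.62. Which copies a probe set reads was not tested, because no probe sequences were used here.

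**Figure D3:**
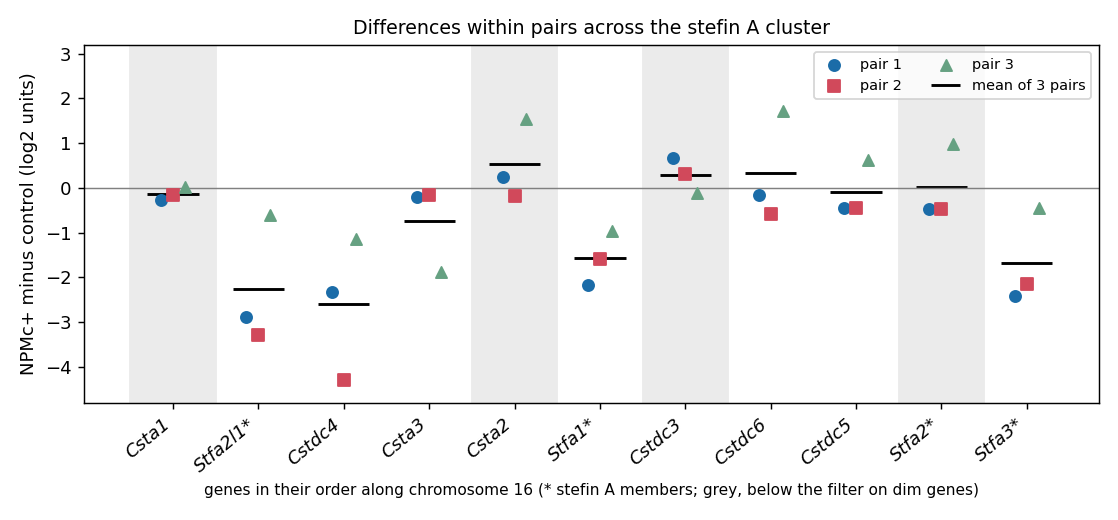
NPMc+ minus control in log2 units for 11 genes of the stefin A cluster in their order along chromosome 16, with a symbol for each pair and a bar at the mean of 3 pairs; grey marks genes below the filter on dim genes. Stfa2l1, Cstdc4, Stfa1 and Stfa3 lie below 0 in all 3 pairs, with means of -2.26, -2.59, -1.57 and -1.67. Csta3, which is dim, does so too, with a mean of -0.75, while Stfa2 and the other genes lie on both sides of 0.

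Of 15 cystatin superfamily genes outside the members, 4 passed the filter. The 11 below it include Cst6, Cst9, Cst10 and the kininogen genes Kng1 and Kng2. Camp, the cathelicidin precursor of neutrophil granules, and Ngp, neutrophilic granule protein, share a cystatin-like fold. Camp was 1.95-fold lower (-0.96 ± 0.32, SE) and Ngp 1.78-fold (-0.83 ± 0.35), with pair differences of -1.70, -1.14 and -0.04 for Camp and -1.79, -0.81 and 0.11 for Ngp. Fetub, a fetuin of the blood plasma, differed by -0.46 ± 0.23 and Cstl1 by 0.09 ± 0.21. Camp was the 1 of these 4 that was nominally lower, and 0 were nominally higher; without pair 1 or without pair 2 it was 0 of 4, and without pair 3 it was 2.

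The protease targets of cystatins went both ways. Of the 10 genes tested among the cysteine cathepsins and legumain, 3 were nominally lower and 1 nominally higher, and 0 passed after Benjamini-Hochberg adjustment over all genes in limma. The list's median was -0.15 log2 units, with -0.04, 0.28 and -0.46 in pairs 1, 2 and 3. Ctss, cathepsin S of antigen-presenting cells, was 2.62-fold lower (-1.39 ± 0.22, SE, n = 3 pairs; limma adjusted p = 0.249). Its control values were 9.60, 9.55 and 9.22 and its NPMc+ values 7.92, 7.97 and 8.31, without overlap. Lgmn, legumain, which cystatin C also inhibits, was 2.0-fold lower (-1.0 ± 0.21, SE; limma adjusted p = 0.340), and Ctsh, an aminopeptidase, 1.64-fold lower. Ctso was 1.44-fold higher. Ctsc, the cathepsin C that cystatin F is known to inhibit, differed by 0.79, -0.69 and -0.85 in pairs 1, 2 and 3, and Ctsb and Ctsl had means of -0.05 and 0.02.

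Proteases that cystatins of this kind do not inhibit were compared as well. Of 7 cathepsins of other classes and neutrophil serine proteases, 1 was nominally lower and 0 nominally higher, with a list median of 0.32. The lower gene was Ctse, an aspartic protease, at 2.0-fold (-1.0 ± 0.23, SE). The granule proteases Elane and Prtn3 had 0.32 ± 0.20 and 0.36 ± 0.29 (SE), and Napsa 0.45 ± 0.32. Without pair 3 the nominal count was 3 of 7.

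Markers of other cells differed in the same samples. Of 21 late neutrophil markers tested, 14 were nominally lower and 0 nominally higher in limma, and 0 passed after adjustment, with a median of -0.96 log2 units. Their mean level per array ranged from 9.06 to 9.77 in control and from 8.25 to 8.96 in NPMc+. The pair medians were -1.41, -1.14 and -0.07, so that the median difference of these markers lay mostly in pairs 1 and 2. The median of the stefin A members was also nearest to 0 in pair 3, at -0.53. In that pair Stfa1 had -0.96, Stfa2l1 -0.60, Stfa3 -0.46, the dim Stfa2 0.97 and the neighbouring Cstdc4 -1.15. Single late neutrophil markers ran there from -1.07 in Il1b, through -0.55 in Trem1 and -0.45 in G0s2, to 0.32 in Mmp9. Csf3r, the 1 marker of the list with a positive mean difference, had 0.37, 0.28 and 0.24 in pairs 1, 2 and 3. Without pair 1 the nominal count of these markers in either direction was 3, without pair 2 it was 5 and without pair 3 it was 19. The defining markers were bright in both groups: Ly6g had means of 8.56 and 6.43, Mmp8 10.82 and 9.02, and Retnlg 10.64 and 8.97 in control and NPMc+. Ly6g differed by -3.51, -2.48 and -0.42 across the pairs, and Il1b, the list's member with the smallest p, by -3.32, -4.12 and -1.07. The part of neutrophil RNA in the stefin A differences was not tested, and in bulk samples fewer cells of a type cannot be told apart from less RNA per cell.

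Not all genes of the granulocyte lineage followed the late markers. Of 7 granulocyte precursor markers, 1 was nominally lower, Fcnb at 1.71-fold, and 0 nominally higher (1 of 7 without pair 1, 0 without pair 2 and 2 without pair 3). The median was 0.17, with level ranges of 9.67 to 9.90 in control and 9.77 to 10.00 in NPMc+. Mpo differed by 0.17 and Cebpe by 0.38.

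For the cells in which Cst7 is known, 6 of 12 NK and cytotoxic T markers were nominally lower and 2 nominally higher (5 in all without pair 3), and the median was -0.89. Their mean level ranged from 5.03 to 5.40 in control and from 4.36 to 4.73 in NPMc+. Ncr1, a defining NK receptor, was dim, with means of 3.25 and 3.04; Prf1 had 4.82 and 4.46 and Cd3e 5.71 and 4.38. Genes of cytotoxic granules went both ways. Gzmb (0.84, 0.74 and 0.94 in pairs 1, 2 and 3) and Nkg7 (0.61, 0.59 and 0.23) were the 2 nominally higher genes. Gzma (-0.20, -0.92 and -1.20) was nominally lower but dim, with means of 3.82 in control and 3.05 in NPMc+. Prf1 had -0.10, -0.25 and -0.74. Klrd1, a receptor chain of NK cells, had -1.51, -2.89 and -1.34.

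Of 17 monocyte, macrophage and dendritic markers, 5 were nominally lower and 0 nominally higher, with a median of -0.29 and mean levels of 5.95 to 6.01 in control and 5.57 to 5.62 in NPMc+. Leaving out pair 1, 2 or 3 left 2, 2 and 3 of them. Csf1r, Adgre1 and C1qa, which define these cells, had control means of 5.82, 4.51 and 4.24 and NPMc+ means of 5.40, 3.70 and 3.95. Of 18 LT-HSC markers, 8 were nominally higher and 0 nominally lower, with a median of 0.44 and mean levels of 5.83 to 5.95 in control against 6.32 to 6.45 in NPMc+. The defining LT-HSC genes Procr, Slamf1 and Mecom had means of 5.33, 4.76 and 5.89 in control and 5.41, 5.16 and 7.22 in NPMc+. Xist, an RNA made from an inactive X chromosome and thus in female cells, had differences of -5.44 and -5.39 in pairs 1 and 2 and of 0.48 in pair 3. The larger Xist differences lay in the pairs with the larger stefin A differences, and their part was not tested.

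**Figure D4:**
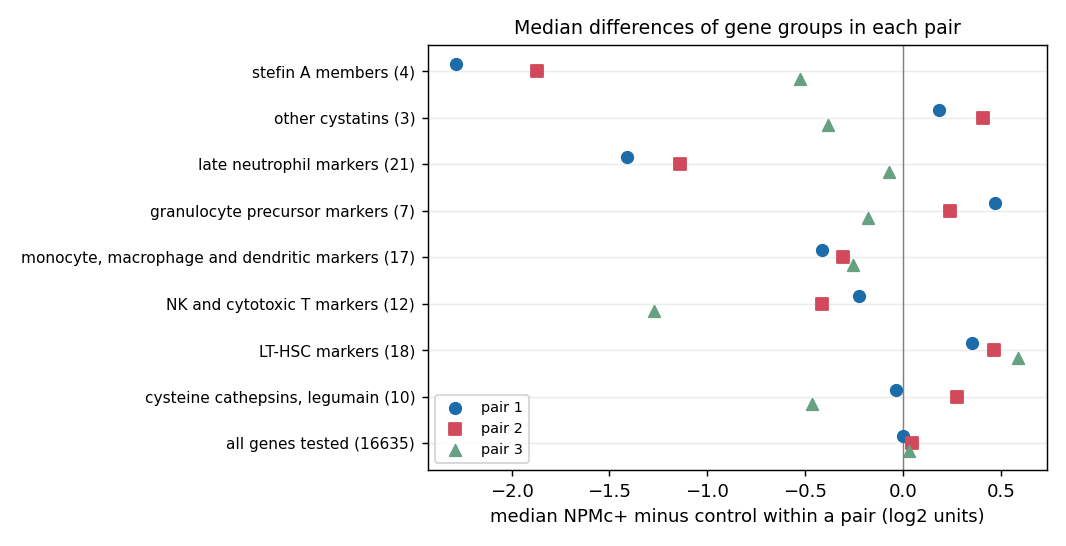
Median NPMc+ minus control in log2 units within pairs 1, 2 and 3 for the stefin A members, the other cystatins, marker lists, cysteine cathepsins and all genes tested, with the number of genes in brackets. The stefin A members (-2.28, -1.87 and -0.53) and the late neutrophil markers (-1.41, -1.14 and -0.07) both have their smallest difference in pair 3, while all genes tested stay between 0.00 and 0.05.

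The genes nearest to the stefin A pattern were sought among 14400 named genes outside the members, by the root mean square distance of the 3 pair differences from the stefin A medians. The nearest was Chil3, a chitinase-like protein of neutrophils and macrophages, at a distance of 0.31 log2 units and with differences of -2.04, -1.71 and -0.07. It is also in the late neutrophil list. Slc15a3, a lysosomal peptide transporter, followed at 0.32 with -2.07, -1.72 and -1.02, then Adam19, a membrane metalloprotease, at 0.33 with -1.81, -2.14 and -0.73. Pilra, an inhibitory receptor of myeloid cells, lay at 0.34, Cd226, an adhesion receptor of lymphocytes, at 0.35, and Mcemp1, a membrane protein, at 0.35. Slfn2 and the chemokine gene Ccl6 were at 0.40 and 0.41. The distances rest on 3 pairs of arrays. All 8 genes were lower in every pair, which largely follows from choosing them by nearness to medians that are all negative.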

How the data were processed

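The authors deposited 1 table of log2 expression for 41345 probe sets and 6 arrays. The submitters' processing notes name RMA (background correction, normalization and summary of probes); version, genome build and later steps: not given in the sources used here. Of the probe sets, 23521 had 1 gene symbol in the platform annotation, 1814 several and 16010 none. Of 22180 genes, those with a mean under the 25th percentile were left out and 16635 tested with limma 3.58.1 (lmFit, eBayes, two-sided) in R 4.3.3, with Benjamini-Hochberg adjustment at 0.05. For arrays, their number limits the precision.

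Groups and replicate numbers came from the titles. The mean of same-numbered arrays was equal across pairs within 0.001 log2 units in 100% of probe sets, and at most 0.343% under other pairings; deviations from group means correlated at -1 in each pair. The number was therefore a block, with 2 residual and 4.537 prior degrees of freedom. In that fit 0 of 16635 genes (0%) passed the adjusted threshold, and 1492 (8.97%) had an unadjusted p under 0.05. The fit was tested on simulated data.

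The members and lists were chosen with earlier results of these data known, and the motifs with the promoter sequences seen. Named are the members, up to 4 genes per list with the smallest p, and the 8 genes nearest in pair differences; defining markers and other genes with roles stated were added after their values were seen. Lists were looked up by symbol or RefSeq synonym, and names without a probe set of their own were not analysed. Promoters were aligned with Biopython 1.88 in Python 3.11.15 (match 2, mismatch -1, gap -3 to open and -1 to extend, free ends); figures used matplotlib 3.10.9.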

Additional observations from a re-analysis of the deposited data

How the results depend on the processing

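The medians of the stefin A members and of the other cystatins, and the distance between them, moved by less than the SD between pairs under every alternative listed at the outset; the stefin A median kept its sign in all 11 settings. Leaving out 1 pair at a time gave -2.08 to -1.29 log2 units for the stefin A median, -0.10 to 0.30 for the other cystatins and -2.38 to -1.31 for the distance. Adding the other loci of the cluster, chosen after seeing the data, gave -0.14 for the stefin A median and -0.21 for the distance; 3 of the 7 added loci are below the filter on dim genes. Without the replicate block the medians were the same (-1.62, 0.07 and -1.69), while 828 genes in place of 0 passed the adjusted threshold and 2500 higher and 1638 lower genes had an unadjusted p under 0.05, in place of 989 and 503. That fit counts residual degrees of freedom that the tied values do not hold. Without the block, 14 genes of the pathway lists had an unadjusted p under 0.05, in place of 9. Leaving out a pair gave 0 to 24 genes past the adjusted threshold, and 6 to 11 list genes. Quantile normalization moved Cst7 to 0.56, by more than its small SD of 0.03, in the same direction. Precision is limited by the number of arrays, and differences of genes below the filter are not interpretable at this signal.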

Other observations

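Other protease inhibitors of the listed families were compared beside the cystatins. Of 14 tested, 1 was nominally lower and 1 nominally higher (unadjusted limma p under 0.05), with 0 after adjustment; without pair 1 there were 0 in all and without pair 2 there was 1. Wfdc21, a small protein with a whey acidic protein domain, was 2.36-fold lower (-1.24 ± 0.35 log2 units, SE, n = 3 pairs), with -1.60, -1.95 and -0.17 in pairs 1, 2 and 3. Timp3, an inhibitor of matrix metalloproteinases, was 2.44-fold higher (1.28 ± 0.40, SE), with 1.30, 0.13 and 2.42. A2m, the protease trap of plasma, and Serpinb2 differed by -0.36 ± 0.18 and -0.57 ± 0.28 (SE). Slpi, a secreted inhibitor of neutrophil elastase that is bright on these arrays, differed by -0.07 ± 0.18, with -0.05, -0.22 and 0.06 in the pairs.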
